A study of Mus musculus with 6 samples.

Results

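Endothelial cells line blood and lymph vessels, and 10 genes commonly used to mark them were followed in RNA of mouse colon with and without chronic colitis. The genes were chosen by name and each had 1 row in the files: 10 of 24421 gene rows. They were the vascular endothelial growth factor (VEGF) receptor genes Kdr and Flt1, the junction genes Cdh5, Pecam1, Esam and Cldn5, the capillary diaphragm gene Plvap, the coagulation factor gene Vwf, the secreted factor gene Egfl7 and the lymphatic receptor gene Lyve1. There were 6 samples of colon tissue. Of these, 3 carried dextran sulfate sodium (DSS) induced chronic colitis, in which a sulfated polysaccharide injures the gut lining, and 3 were labelled control. All 6 were C57BL/6 mice with an age label of 7 weeks, and the labels give no other allele or agent. The number of DSS cycles and the stretch of colon taken are not stated in the labels, nor is it said that each sample was a different animal. P-values here describe how these samples scatter, and that scatter can be technical.

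Blood flow reaches the colonic mucosa through arterioles, a capillary net around the crypts and collecting venules, while lymphatic vessels drain fluid and immune cells. VEGF acts on endothelial growth through KDR, with FLT1 as a high-affinity receptor that also acts as a decoy. VE-cadherin, claudin-5 and PECAM-1 hold neighbouring endothelial cells together, and in inflamed venules the cells display selectins and immunoglobulin-family molecules that capture leukocytes.

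The files give FPKM, a read count divided by transcript length and by the size of the library, so levels of different genes can be set beside each other per length. FPKM summed to between 609544 and 678076 per sample, and read depth is unknown. Colonic epithelial genes were abundant in every sample, with Epcam between 680 and 1248 FPKM. DSS 2 had the lowest level of its group in 9 of the 10 endothelial genes, and DSS 1 had the highest in 6. No sample stood so among the controls, where control 3 was highest in 5 and lowest in 4. In bulk tissue fewer cells of a type and less RNA per cell cannot be told apart.

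In DSS colon 1 of the 10 genes, Egfl7, rose. Flt1 was too low to be tested, and the other genes did not pass the test. Testing was limited to genes that reached 1 FPKM in 3 or more samples. Of the 9 that did, 5 had fitted differences above 0 and 4 below. The call rule was a Benjamini-Hochberg adjusted p under 0.05 in limma, a linear model fitted over all 12348 tested genes on log2(FPKM + 1). It called 8.9% of all tested genes, 6.34% higher and 2.56% lower, so 1 call in 9 tested genes lies near the background. The median log2 difference was 0.23 over the 9 genes and 0.13 over all tested genes. Scaling the samples to a common median of gene ratios moved the median of all genes from 0.13 to -0.0024. The adjusted p under that scaling is therefore given for the named genes whose call turns on it. It also moved the calls from 783 higher and 316 lower to 517 higher and 503 lower.

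**Figure D1:**
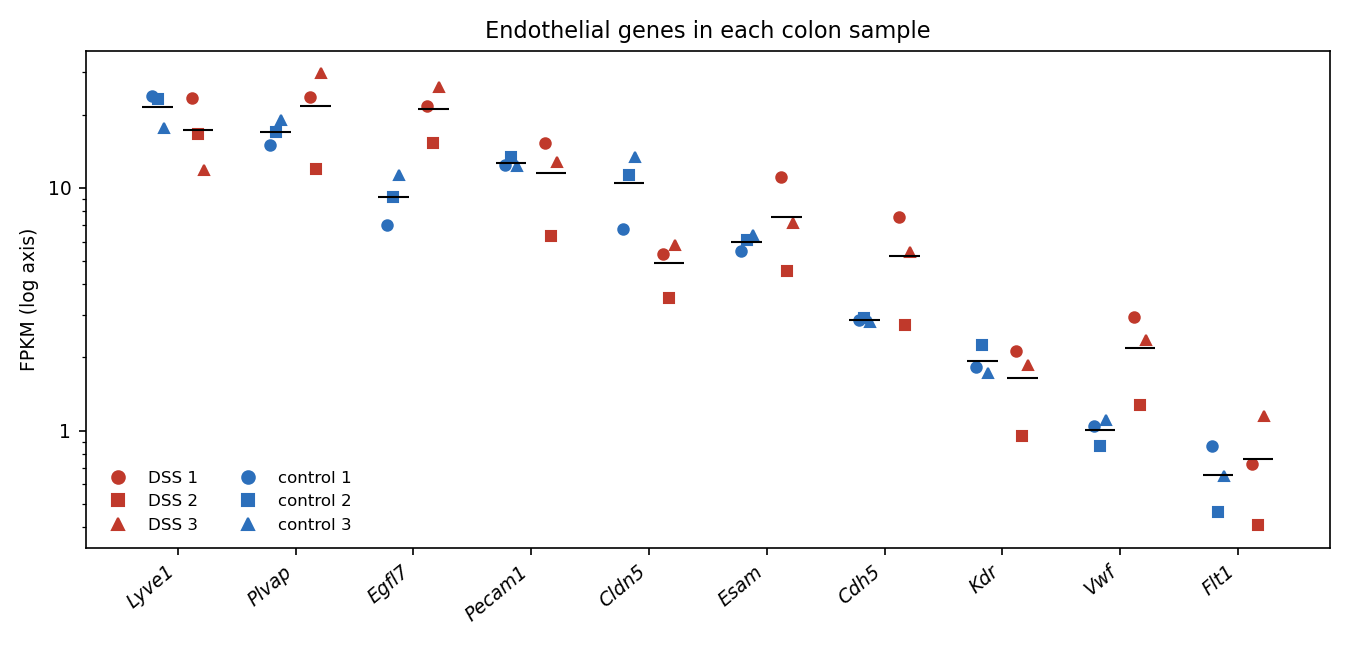
FPKM on a log axis of the 10 endothelial genes in each of the 3 control and 3 DSS samples, ordered by mean level, with bars at group means. Egfl7 and Vwf lie higher in every DSS sample than in any control sample and Cldn5 lower, and the DSS 2 square is the lowest DSS point of every gene but Lyve1.

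In control colon Lyve1 and Plvap stood highest per length, at 21.6 ± 3.41 and 17.0 ± 1.95 FPKM (SD, n = 3 here and below), with overlapping ranges. Pecam1 (12.7 ± 0.620 FPKM), Cldn5 (10.5 ± 3.38 FPKM) and Egfl7 (9.14 ± 2.1 FPKM) followed. The ranges of Cldn5 and Pecam1 overlapped, as did those of Cldn5 and Egfl7. Esam stood at 5.99 ± 0.452 FPKM and Cdh5 at 2.86 ± 0.0623 FPKM, each clear of its neighbours. Kdr stood at 1.93 ± 0.279 FPKM, Vwf at 1.01 ± 0.126 FPKM and Flt1 at 0.659 ± 0.201 FPKM, and the highest Flt1 value (0.864 FPKM) lay just under the lowest Vwf value (0.865 FPKM). Cdh5 was the most even of the 10 genes among the controls, with an SD of 2.18% of its mean, and Cldn5 the least even, at 32.2%.

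Egfl7 encodes a small secreted protein with EGF-like repeats that endothelial cells lay down around sprouting vessels, and an intron of the gene carries the endothelial microRNA miR-126. It lies on chromosome 2 from 26580014 to 26593120 on the plus strand of GRCm38. Its level was 21.8, 15.3 and 26.1 FPKM in DSS 1, 2 and 3, against 7.03, 9.15 and 11.2 FPKM in control 1, 2 and 3. The lowest DSS sample lay above the highest control sample, and even DSS 2, the lowest of its group, stood at 1.67 times the control mean. The log2 difference was 1.11 ± 0.24 SE (95% interval 0.55 to 1.68, limma adjusted p = 0.0335), and the mean FPKM ratio was 2.30. Under median-of-ratios scaling it was 0.96 (adjusted p = 0.0311). The call was lost without the filter on low values (adjusted p = 0.0635) and without DSS 3 (0.118), control 1 (0.0992), control 2 (0.114) or control 3 (0.0717), each such fit holding 5 samples. The difference itself stayed between 0.95 and 1.32 over 15 alternatives.

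Reads of Egfl7 can be shared with genes whose exons overlap its own, and the library kit does not record strand. Its exons share 64 bases with those of Agpat2, a lipid acyltransferase gene on the opposite strand. They share 264 bases with Gm20532, a gene model on the same strand, where a record of strand would not separate the reads. No level was listed for Gm20532, so it could not be set beside Egfl7. Agpat2 stood at 55.4, 54.6 and 63.4 FPKM in the colitis samples against 50.004, 54.9 and 50.2 FPKM in the controls, so its groups overlapped where those of Egfl7 did not. The part of shared reads in the Egfl7 values was not tested. Of 19 annotated Egfl7 transcripts, 8 hold the miR-126a hairpin in an intron and 1 covers it with an exon, while 10 do not span it. The mature strand, shown with bases 2 to 8, its seed, in capitals, is the known small RNA product of this host gene, and libraries of poly(A) RNA do not measure it.
miR-126a-3p (chromosome 2, 26591402 to 26591423): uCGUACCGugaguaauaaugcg

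The promoter sequences of Egfl7 are shown because its FPKM pools transcripts from several start sites, and that of Cldn5 because it is the gene at the other end of the differences. Each window runs from 250 bases before an annotated RefSeq start to 50 after it (GRCm38.p6, plus strand). Capitals mark matches, on either strand, to the letters CCGGAA or CAGGAA of ETS-type factors, GTAAACA of forkhead-type factors and TGATAA of GATA-type factors.
Egfl7, chr2:26580833-26581132: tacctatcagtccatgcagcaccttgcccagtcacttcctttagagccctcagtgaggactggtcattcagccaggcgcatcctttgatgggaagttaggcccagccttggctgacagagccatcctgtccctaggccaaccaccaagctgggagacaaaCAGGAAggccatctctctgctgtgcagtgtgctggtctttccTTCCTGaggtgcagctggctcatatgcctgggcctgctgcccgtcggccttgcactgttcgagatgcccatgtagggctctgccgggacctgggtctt
Egfl7, chr2:26583615-26583914: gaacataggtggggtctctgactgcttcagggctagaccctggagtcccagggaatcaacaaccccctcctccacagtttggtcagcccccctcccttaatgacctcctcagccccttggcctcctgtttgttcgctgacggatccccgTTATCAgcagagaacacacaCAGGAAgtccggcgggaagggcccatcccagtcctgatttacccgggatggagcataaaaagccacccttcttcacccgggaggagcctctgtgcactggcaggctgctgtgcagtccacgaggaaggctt
Egfl7, chr2:26586386-26586685: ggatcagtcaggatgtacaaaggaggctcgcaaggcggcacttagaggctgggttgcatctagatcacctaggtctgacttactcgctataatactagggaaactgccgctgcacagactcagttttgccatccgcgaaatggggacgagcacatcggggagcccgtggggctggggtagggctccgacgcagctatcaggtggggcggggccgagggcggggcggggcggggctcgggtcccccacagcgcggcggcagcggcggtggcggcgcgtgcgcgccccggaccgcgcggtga
Cldn5, chr16:18776597-18776896: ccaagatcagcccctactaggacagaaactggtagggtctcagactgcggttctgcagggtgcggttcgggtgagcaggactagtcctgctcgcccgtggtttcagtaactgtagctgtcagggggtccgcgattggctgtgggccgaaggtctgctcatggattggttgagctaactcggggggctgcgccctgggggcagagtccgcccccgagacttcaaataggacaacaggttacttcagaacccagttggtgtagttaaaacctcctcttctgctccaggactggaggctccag
The upstream Egfl7 window holds CAGGAA at -90 and on the minus strand at -48, counted from the start site to the leftmost base. The middle window holds it at -81 and a minus-strand TGATAA match at -101. The downstream Egfl7 window and the Cldn5 window hold none of these letters. Of 32851 promoter windows of the same length, 30.6% hold CAGGAA, 14.9% CCGGAA, 9.05% TGATAA and 3.65% GTAAACA, so a match to the ETS-type letters is common and is a description, not a binding site.

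Vwf encodes von Willebrand factor, which endothelial cells store for release at injured vessel walls and which tethers platelets. It stood at 2.93, 1.28 and 2.35 FPKM in DSS 1, 2 and 3, against 1.04, 0.865 and 1.11 FPKM in the controls. The groups did not overlap, yet DSS 2 lay at 1.27 times the control mean and the gene did not pass the test (log2 difference 0.63 ± 0.23 SE, 95% interval 0.10 to 1.17, adjusted p = 0.125). Adding 1 FPKM before the log damps a change at this level: with 0.1 FPKM added the difference was 0.98 (adjusted p = 0.128), and the mean FPKM ratio was 2.17. Without DSS 2 it passed (log2 difference 0.86, adjusted p = 0.0405). Groups that did not overlap were found for 3 of the 10 genes, Egfl7 and Vwf higher and Cldn5 lower. Among all tested genes 25.6% lay higher in every DSS sample than in any control and 9.51% lower. Platelets also carry von Willebrand factor and PECAM-1. Of 7 platelet genes, 2 were tested and neither passed: Pf4 had 17.4, 14.7 and 13.1 FPKM in the colitis samples against 42.1, 30.0 and 20.6 FPKM in the controls, and Gp1bb had 11.9, 38.5 and 32.7 FPKM in the colitis samples against 0.101, 9.28 and 9.96 FPKM in the controls. Treml1 was listed at 0 in all 6 samples and Gp9 in 4 of them. The part of platelets in the Vwf and Pecam1 values was not tested.

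**Figure D2:**
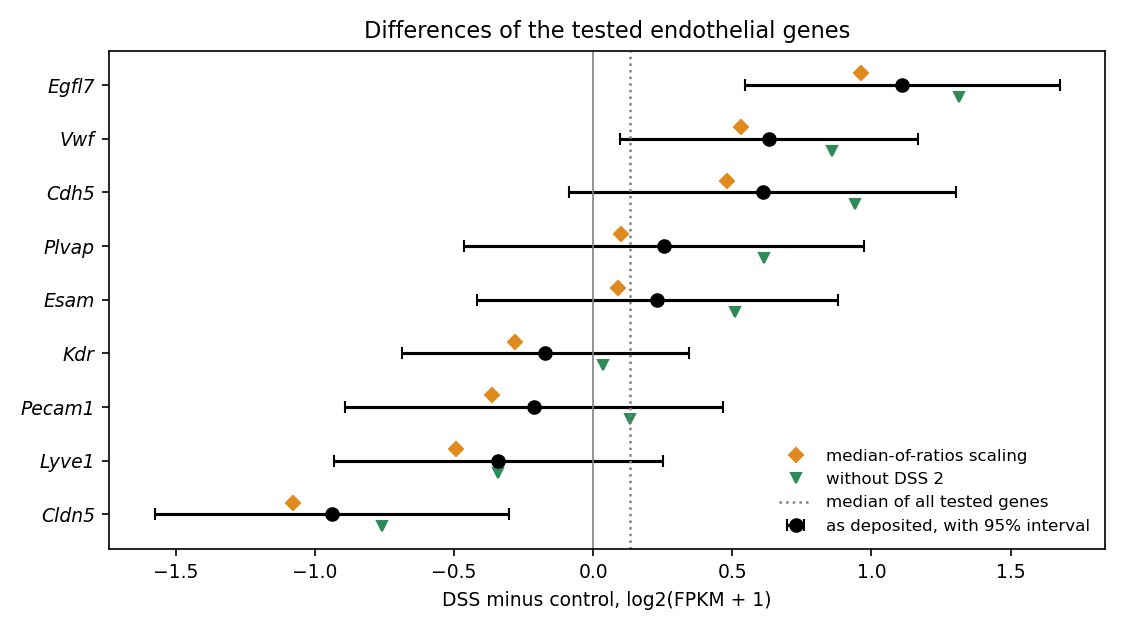
Log2 difference of DSS from control colon for the 9 tested endothelial genes, with 95% intervals from limma (black), the value under median-of-ratios scaling (orange) and the value without DSS 2 (green). Egfl7 lies farthest above 0 at 1.11 and Cldn5 farthest below at -0.94, and leaving out DSS 2 moves every gene to the right except Lyve1.

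Among the junction genes, Cdh5 and Cldn5 differed in opposite directions without passing the test. Cdh5 encodes VE-cadherin, the adherens junction protein of endothelium. It stood at 7.55, 2.71 and 5.42 FPKM in the colitis samples against 2.86, 2.92 and 2.79 FPKM in the controls, so DSS 1 and DSS 3 lay above all controls and DSS 2 below them. Its log2 difference was 0.61 ± 0.30 SE (95% interval -0.09 to 1.31, adjusted p = 0.226). Without DSS 2 it passed, at 0.94 (adjusted p = 0.0405), and without DSS 1 the difference was 0.34 (adjusted p = 0.417).

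Cldn5 encodes claudin-5, the main tight junction claudin of endothelium. It stood at 5.35, 3.53 and 5.80 FPKM in the colitis samples against 6.79, 11.3 and 13.4 FPKM in the controls, every DSS sample under every control. Its log2 difference was -0.94 ± 0.27 SE (95% interval -1.57 to -0.30, adjusted p = 0.0752), short of the threshold. It passed under median-of-ratios scaling (-1.08, adjusted p = 0.0358) and upper-quartile scaling (-1.09, adjusted p = 0.0355), and its adjusted p reached 0.226 over 15 alternatives.

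Pecam1, the junction receptor CD31 that platelets and many leukocytes also carry, stood at 15.3, 6.31 and 12.8 FPKM in the colitis samples against 12.4, 13.4 and 12.3 FPKM in the controls. The DSS samples lay on both sides of the controls (log2 difference -0.21, 95% interval -0.89 to 0.47, adjusted p = 0.672), and without DSS 2 the sign turned (0.13, adjusted p = 0.62). Esam, an adhesion molecule of endothelium and platelets, stood at 11.1, 4.56 and 7.16 FPKM in the colitis samples against 5.50, 6.08 and 6.39 FPKM in the controls. It had the same order of DSS samples as Pecam1 and Cdh5, and overlapped its controls (log2 difference 0.23, 95% interval -0.42 to 0.88, adjusted p = 0.627). Without DSS 1 its difference turned to -0.05 (adjusted p = 0.902).

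Of the VEGF receptor genes, Kdr did not pass the test and Flt1 was not tested. Kdr, which encodes the main signalling receptor for VEGF, stood at 2.13, 0.948 and 1.87 FPKM in the colitis samples against 1.82, 2.25 and 1.73 FPKM in the controls. Its 95% interval ran from -0.69 to 0.34 around a log2 difference of -0.17 (adjusted p = 0.653), with 0.04 without DSS 2 (adjusted p = 0.913). Flt1 did not reach the level for testing, with 0.729, 0.408 and 1.15 FPKM in the colitis samples against 0.864, 0.463 and 0.650 FPKM in the controls. Fitted without the filter on low values, it had a log2 difference of 0.07 ± 0.19 SE (adjusted p = 0.855). Values this low are also the ones whose change log2(FPKM + 1) understates.

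Plvap encodes the protein of the diaphragms that span capillary pores and caveolae. It stood at 23.6, 12.0 and 29.6 FPKM in the colitis samples against 15.1, 16.9 and 19.0 FPKM in the controls, with DSS 1 and DSS 3 above and DSS 2 below all controls (log2 difference 0.25, 95% interval -0.46 to 0.97, adjusted p = 0.629). Without DSS 3 the difference was -0.0044 (adjusted p = 0.997). Lyve1, the hyaluronan receptor of lymphatic endothelium and of some tissue macrophages, stood at 23.5, 16.7 and 11.8 FPKM in the colitis samples against 23.8, 23.3 and 17.7 FPKM in the controls (log2 difference -0.34, 95% interval -0.93 to 0.25, adjusted p = 0.418). Without DSS 3 the Lyve1 difference was -0.11 (adjusted p = 0.832) and without DSS 1 it was -0.57 (adjusted p = 0.131). It was the gene of the 10 whose lowest DSS value was not in DSS 2 but in DSS 3. Among 6 tested tissue macrophage genes Folr2, a folate receptor of resident macrophages, fell. It had 1.70, 4.06 and 3.21 FPKM in the colitis samples against 10.9, 8.53 and 6.77 FPKM in the controls (adjusted p = 0.0308, up to 0.11 over the alternatives and lost without DSS 3 or any control and without the filter). Cd209f, a lectin gene, was listed at 0 in DSS 1 and DSS 3, had 0.719 FPKM in DSS 2 and had 1.90, 1.88 and 2.56 FPKM in the controls (adjusted p = 0.0191, lost without DSS 3 at 0.076). Cd209f reached the level for testing through the controls alone, was not tested with a control left out and rests on listed zeros, which can be failed estimates, so it is not counted here as a gene that fell. Of the 6 macrophage genes, 2 had fitted differences above 0. Adgre1 lay higher in every DSS sample without passing (adjusted p = 0.168). It had 6.57, 5.86 and 6.93 FPKM in the colitis samples against 5.29, 4.77 and 3.89 FPKM in the controls. Mrc1 overlapped between the groups (adjusted p = 0.862). The summed macrophage genes lay between 23.2 and 28.7 FPKM in the colitis samples against 28.5 to 40.4 FPKM in the controls. The part of macrophages in the Lyve1 values was not tested.

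The 10 genes partly moved together from sample to sample. Of 45 pairs, 35 had a Pearson r above 0 over the 6 samples, with a median of 0.43 and a range from -0.63 (Egfl7 and Lyve1) to 0.97. After the group means were removed, 41 pairs had an r above 0. These are descriptions over 6 samples that share their library and its total. The mean profile of the 9 tested genes was matched most closely, among tested genes outside the lists, by Sema4c, Fbl, Ly6e, Nfya and Pdgfb (r from 0.988 to 0.994). They top a search over most of the 12348 tested genes, and over 6 samples such a search can reach r this high by itself. Pdgfb, the growth factor by which endothelium recruits pericytes, stood at 2.32, 0.967 and 1.98 FPKM in the colitis samples against 1.34, 1.54 and 1.75 FPKM in the controls.

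Because most of the genes were low in DSS 2 together, each was also set against Pecam1 and against Cdh5 of the same sample, a choice made after the values were seen. Relative to Pecam1, Cdh5 stood at 0.493, 0.430 and 0.423 in DSS and at 0.230, 0.218 and 0.228 in control colon. Vwf stood at 0.191, 0.203 and 0.183 of Pecam1 in DSS and at 0.0840, 0.0645 and 0.0904 in control colon. In both ratios DSS 2 lay with the other DSS samples, whereas by its level alone it lay near the controls. Egfl7 and Esam were also higher relative to Pecam1 in every DSS sample, which makes 4 of 9 ratios, beside 20.6% of all tested genes set against Pecam1, and none lay lower in every DSS sample, beside 3.98%. The ratio of Kdr to Pecam1 overlapped between the groups, at 0.145 ± 0.00554 in DSS and 0.152 ± 0.0142 in control colon. Each ratio apart had an exact permutation p of 0.1, two-sided, the smallest that 3 samples against 3 allow, and 0.225 after Benjamini-Hochberg adjustment over the 9 ratios.

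Relative to Cdh5, the genes Pecam1, Kdr, Esam, Cldn5 and Lyve1 were lower in every DSS sample, 5 of 9 ratios, beside 28% of all tested genes, and none lay higher in every DSS sample, beside 2.54%. Their exact permutation p was again 0.1, or 0.18 after adjustment over 9 ratios. The ratio of Pecam1 to Cdh5 is that of Cdh5 to Pecam1 inverted, so both tallies hold this comparison and they are not separate results. Cldn5 lay farthest from its control level in this measure, at 0.709, 1.30 and 1.07 of Cdh5 in DSS and 2.38, 3.86 and 4.80 in control colon. Between Cldn5 and Egfl7 the ratio was 0.245, 0.231 and 0.222 in DSS and 0.966, 1.23 and 1.19 in control colon. These 2 genes lie at the ends of the list, so the distance between their groups follows from how they were picked.

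**Figure D3:**
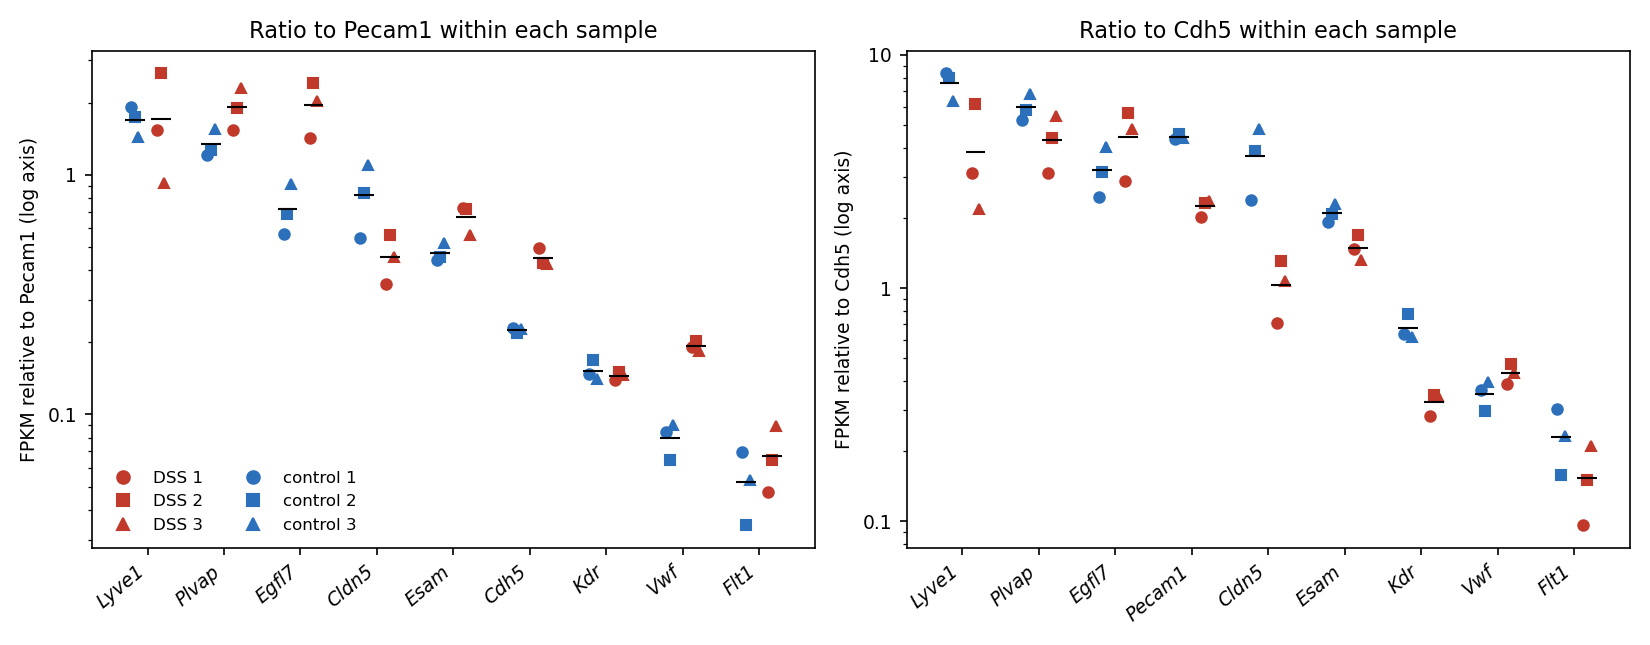
FPKM of each endothelial gene divided by Pecam1 (left) or Cdh5 (right) of the same sample, on log axes, with bars at group means over 3 samples. Cdh5, Vwf, Egfl7 and Esam stand higher relative to Pecam1 in every DSS sample, and the Kdr ratios to Pecam1 overlap.

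A wider set of 77 vascular genes in 9 lists was read in the same fit. Of 63 tested, 7 rose and 2 fell, beside 6.34% and 2.56% of all tested genes, and their median log2 difference was 0.29 beside 0.13 for all. The tally turned on the scaling: under median-of-ratios and under upper-quartile scaling 2 rose (Vcam1 and Selp) and 3 fell (Bmp6, Cd36 and Cav1). Without the filter on low values 2 rose and 2 fell. With DSS 3 or any 1 control left out 1 rose, and 1, 0, 0 and 1 fell without DSS 3, control 1, control 2 and control 3. The inducible adhesion molecules of venules had the highest median of the 9 lists, at 1.10 over 5 tested genes. Vcam1, which binds leukocyte integrins, rose from 5.61, 5.11 and 4.73 FPKM in the controls to 30.1, 16.4 and 19.7 FPKM in DSS (log2 difference 1.87, adjusted p = 0.00409). Vcam1 passed in all 15 alternatives, and which cells of the bulk tissue carried its RNA was not tested. Selp, the P-selectin gene that platelets share, stood at 9.38, 1.99 and 6.84 FPKM in the colitis samples against 0.728, 0.498 and 0.470 FPKM in the controls (log2 difference 2.00, adjusted p = 0.0352). Selp reached the level for testing through the DSS samples alone, so it was not tested with a DSS sample left out. Its place among the 7 that rose, among the 2 under either scaling and in the median of its list carries no weight. Selp lost the call without any 1 control and without the filter on low values (adjusted p up to 0.128). Icam1 (adjusted p = 0.0672), Ackr1 (0.0508) and Madcam1 (0.131) did not pass, and each did without DSS 2 (0.0173, 0.016 and 0.0471). Sele, E-selectin, was not tested, with 0.600, 0 and 0.113 FPKM in the colitis samples against 0.0731, 0 and 0 FPKM in the controls.

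Ligands and receptors of the growth pathways did not pass where they were tested. None of 6 tested VEGF genes was called (0 also at an unadjusted limma p under 0.05, beside 28.3% of all tested genes), and Vegfa stood at 11.2, 12.5 and 17.0 FPKM in the colitis samples against 12.5, 12.6 and 12.4 FPKM in the controls. Below the level for testing, Pgf, the placental growth factor that binds FLT1, had 1.01, 0.838 and 2.23 FPKM in the colitis samples against 0.422, 0.158 and 0.241 FPKM in the controls. Figf, which encodes VEGF-D, had 0.851, 2.88 and 3.997 FPKM in the colitis samples against 0.669, 0.789 and 0.220 FPKM in the controls, also untested. None of 5 tested angiopoietin, Tie and apelin genes was called (0 at an unadjusted p under 0.05), with the vessel-destabilising ligand gene Angpt2 at 2.21, 1.44 and 3.08 FPKM in the colitis samples against 1.26, 1.73 and 1.63 FPKM in the controls. Among 14 other endothelial surface genes none passed (1 at an unadjusted p under 0.05). That 1 was Ecscr, a regulator of endothelial migration, at 33.1, 17.0 and 26.9 FPKM in the colitis samples against 15.1, 12.1 and 11.8 FPKM in the controls (adjusted p = 0.0672, and 0.0211 without DSS 2).

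Single genes passed among the regulators. Of 7 tested transcription factor genes Klf2, the flow-responsive Krüppel-like factor of endothelium that lymphocytes also express, rose from 10.7 ± 2.02 to 19.1 ± 2.82 FPKM (adjusted p = 0.0451). Fli1, an ETS factor of endothelium and blood cells, had 3.65, 1.99 and 2.63 FPKM in the colitis samples against 0.864, 1.41 and 0.971 FPKM in the controls (adjusted p = 0.0552, and 0.0433 without DSS 2). Erg, its relative in endothelium, had 1.51, 0.630 and 0.722 FPKM in the colitis samples against 1.01, 1.002 and 1.21 FPKM in the controls (adjusted p = 0.765). Of 6 tested Notch and BMP genes the Notch ligand gene Jag1 rose from 1.40 ± 0.349 to 3.31 ± 0.740 FPKM (adjusted p = 0.0479) and Bmp6, an iron-regulating ligand of liver endothelium, fell from 2.63 ± 0.0929 to 0.812 ± 0.396 FPKM (adjusted p = 0.0225). The tip-cell Notch ligand gene Dll4 had 3.82 ± 0.406 FPKM in the colitis samples against 2.05 ± 0.780 FPKM in the controls (adjusted p = 0.103). Klf2 and Jag1 lost the call under median-of-ratios and upper-quartile scaling, without the filter or with it at 0.1 FPKM, and without DSS 2, DSS 3 or any control (adjusted p up to 0.154 and 0.149). Jag1 also lost it with 0.1 FPKM as the value added before the log (adjusted p = 0.0529). Bmp6 lost it without DSS 2, DSS 3 or any control (up to 0.101). Under median-of-ratios scaling the adjusted p was 0.0891 for Klf2 and 0.0628 for Jag1.

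Transport genes of capillaries were called in both directions. Of 8 tested, Fabp4, a fatty acid carrier of capillaries, fat cells and macrophages, rose from 63.4 ± 3.60 to 118 ± 24.4 FPKM (adjusted p = 0.0269). The water channel gene Aqp1 rose from 19.4 ± 1.42 to 36.3 ± 8.96 FPKM (adjusted p = 0.0409). Cd36, a fatty acid receptor, fell from 8.73 ± 1.31 to 2.88 ± 0.817 FPKM (adjusted p = 0.0118). Cav1, the caveola coat gene that smooth muscle also expresses, had 44.6, 27.0 and 50.4 FPKM in the colitis samples against 84.0, 73.6 and 66.3 FPKM in the controls. It passed only under median-of-ratios scaling (adjusted p = 0.0301) and upper-quartile scaling (0.026), with 0.0601 as deposited. Fabp4 and Aqp1 lost the call under those scalings and without DSS 2, DSS 3 or any control (adjusted p up to 0.11 and 0.127), Aqp1 also without the filter (0.0706), and Cd36 without control 1 or control 2 (up to 0.067). Under median-of-ratios scaling the adjusted p was 0.052 for Fabp4 and 0.0633 for Aqp1. None of 6 tested genes of coagulation and vessel tone passed (2 at an unadjusted limma p under 0.05, beside 28.3% of all tested genes). Among them the protein C receptor gene Procr had 12.0 ± 1.14 FPKM in the colitis samples against 8.10 ± 0.895 FPKM in the controls (adjusted p = 0.0832), and the endothelin gene Edn1 had 9.81, 7.03 and 4.87 FPKM in the colitis samples against 10.2, 45.5 and 19.5 FPKM in the controls (adjusted p = 0.117).

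Beside Lyve1, the other lymphatic genes differed from each other. Of 6 tested, Pdpn, which fibroblasts share with lymphatic endothelium, rose from 8.78 ± 1.49 to 20.5 ± 7.73 FPKM (adjusted p = 0.0457, up to 0.158 over the alternatives and lost under both scalings, without the filter, with it at 0.1 FPKM and without DSS 3 or any control). Under median-of-ratios scaling the Pdpn adjusted p was 0.0679. Mmrn1, a matrix protein gene of lymphatic endothelium and platelets, had 12.3, 8.68 and 6.42 FPKM in the colitis samples against 9.50, 10.9 and 9.27 FPKM in the controls (adjusted p = 0.721), in the same order of DSS samples as Lyve1. Prox1, the lymphatic master factor, lay between 0.0861 and 0.302 FPKM in all 6 samples and was not tested. Ccl21a, a chemokine of lymphatic vessels and lymphoid tissue, stood at 72.0 FPKM in control 1 and 34.3 FPKM in DSS 3 and between 0.998 and 2.03 FPKM in the other 4 samples.

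**Figure D4:**
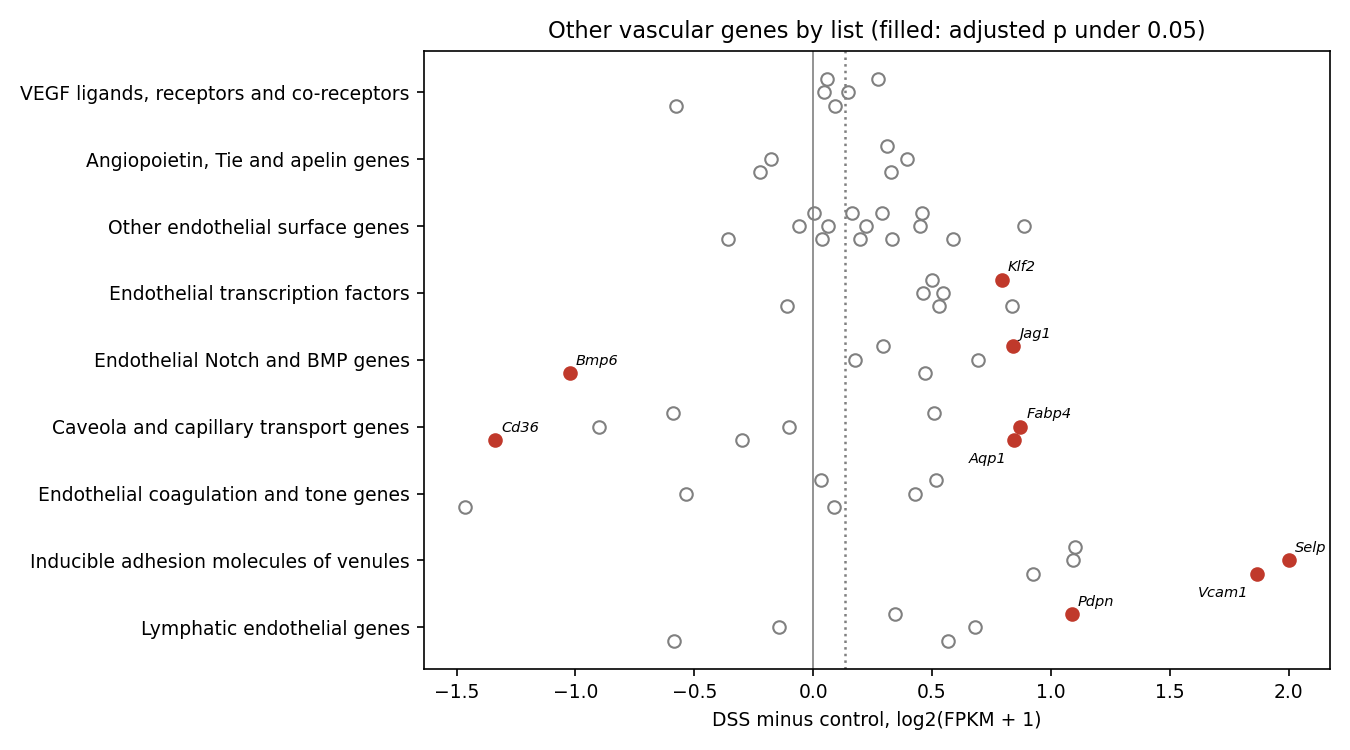
Log2 difference of DSS from control colon for each tested gene of the 9 vascular lists, filled and named where the adjusted p was under 0.05, with the dotted line at the median of all tested genes (0.13). The 5 adhesion genes all lie above 0.9, and the VEGF and angiopoietin lists hold no filled point.

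Some markers of other cell types differed between the groups, and others did not pass the test. Over all tested genes 6.34% were called higher and 2.56% lower. Of 4 pan-leukocyte genes Cd53 (adjusted p = 0.00526) and Laptm5 (0.0221) rose. Ptprc did not pass (adjusted p = 0.367), and its groups overlapped. Coro1a lay higher in every DSS sample without passing (adjusted p = 0.12). The summed level lay between 69.2 and 121 FPKM in the colitis samples against 26.8 to 45.1 FPKM in the controls, with Coro1a the largest part in every sample. Cd53 passed in all 15 alternatives, and Laptm5 failed to pass when DSS 3 or a control was left out (adjusted p up to 0.0917). Of 5 tested pericyte genes Kcnj8 and Abcc9, which encode the channel and receptor subunits of the pericyte potassium channel, rose from 12.8 ± 1.55 to 32.2 ± 11.8 FPKM (adjusted p = 0.0308) and from 3.68 ± 0.324 to 9.18 ± 2.71 FPKM (adjusted p = 0.0291). Neither passed when DSS 3 or a control was left out, nor without the filter (adjusted p up to 0.117 each). Rgs5 (adjusted p = 0.17), Pdgfrb (0.483) and Cspg4 (0.535) did not pass, and their groups overlapped. All 5 fitted differences lay above 0. Of 5 epithelial genes the keratin gene Krt8 fell (adjusted p = 0.0275, lost without DSS 2, DSS 3 or any control at up to 0.0904), and the summed level lay between 3879 and 4577 FPKM in the colitis samples against 5988 to 7918 FPKM in the controls. None of 5 smooth muscle genes passed (4 at an unadjusted p under 0.05, beside 28.3% of all tested genes), with summed levels of 1447, 961 and 2561 FPKM in the colitis samples against 3553, 3720 and 2850 FPKM in the controls. Acta2 and Tagln, smooth muscle actin and transgelin, passed as lower under median-of-ratios scaling (adjusted p = 0.035 and 0.0362), under upper-quartile scaling (0.0325 and 0.0345) and without DSS 3 (0.0471 and 0.0292). Des, the desmin gene, passed as lower under upper-quartile scaling (0.0488) and without DSS 3 (0.0176), and Cnn1, the calponin gene, without DSS 3 (0.0387). The epithelial cadherin gene Cdh1 passed as lower under median-of-ratios scaling (0.0486), upper-quartile scaling (0.0421) and without DSS 1 (0.034), and the pericyte gene Rgs5 as higher without DSS 1 (0.0147). DSS 2, the lowest sample for most endothelial genes, was also the lowest for the smooth muscle and the epithelial sums. The epithelial sum was led by Krt8, with 2405 FPKM in DSS 2. Krt8, Vil1 and Cdh1 were lowest in DSS 2, and Epcam and Cldn7 in DSS 3. The median log2 deviation of the 5 epithelial genes from their control means was -0.21, -0.48 and -0.60 in DSS 1, 2 and 3. The part of these cell types in the endothelial values was not tested.

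**Figure D5:**
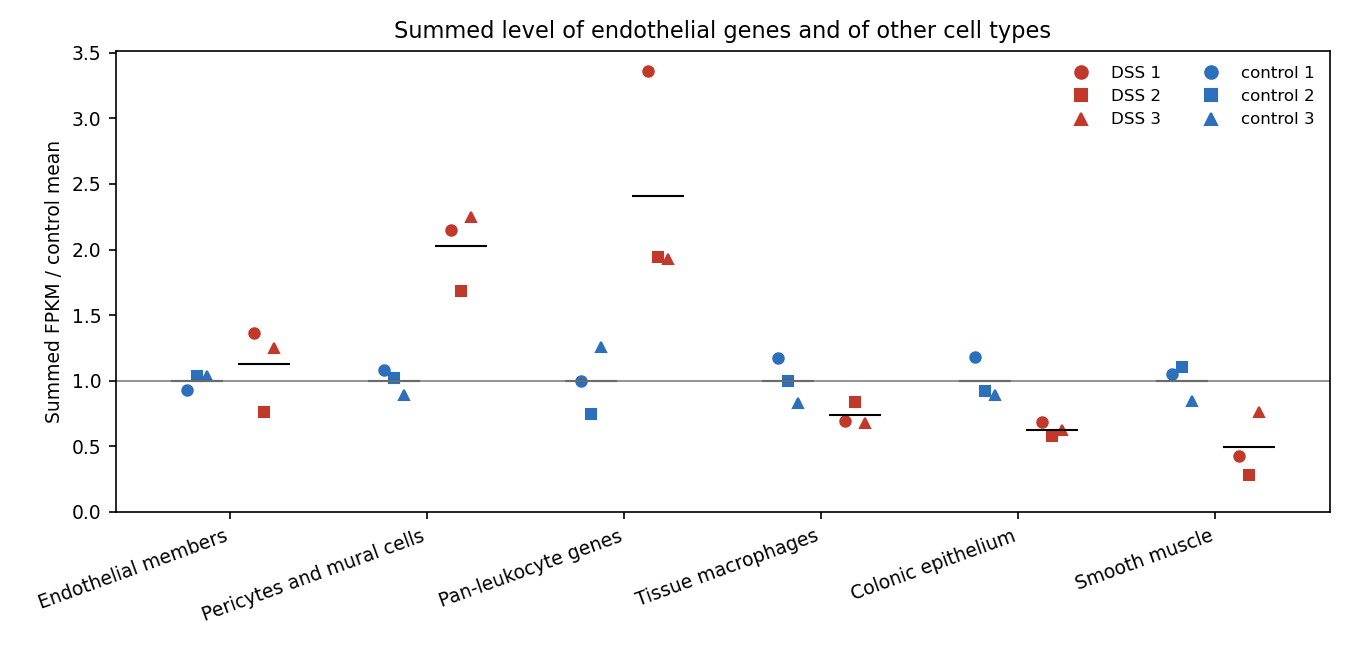
Summed FPKM of the 10 endothelial genes and of 5 other marker lists in each sample, divided by the control mean of that list, with bars at group means over 3 samples. The endothelial sum in DSS lies on both sides of 1 (1.37, 0.764 and 1.25), while pericyte and leukocyte sums lie above every control and epithelial and smooth muscle sums below.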

How the data were processed

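RNA of 3 DSS and 3 control mouse colon samples was analysed. The authors deposited FPKM values, per the file headers, 1 file per sample. The submitters' processing notes name TopHat2 2.1.1 and mm10. What computed the FPKM, and on which annotation, is not given in the sources used here. Low values did not fall into whole-read steps (in ratios of 2 samples a 0.02-wide log2 bin held at most 1.38% of genes), which leaves depth unknown. DSS 1 lists Gapdh, a gene of all cells, at 0 FPKM, and controls 1, 2 and 3 list it at 2.00, 0.117 and 0.145 FPKM. DSS 2 and DSS 3 list it at 21.4 and 36.1 FPKM. A listed 0, and also a low value above 0, may thus be a failed estimate.

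Genes reaching 1 FPKM in 3 or more samples were fitted as log2(FPKM + 1) by group. The fit used limma 3.58.1 (R 4.3.3), two-sided, with its trend and robust options. The endothelial genes and all lists were chosen with earlier results of these data known. Named were all 10 genes, in each list the genes past the threshold and otherwise up to 3 with the smallest p or highest level, and the 5 genes most like the mean profile; those most like Egfl7 are not reported here. Of the other list genes, Pgf, Figf, Sele, Erg, Prox1, Angpt2, Mmrn1, Ccl21a and Cav1 were chosen with their values in view. So were Adgre1, Mrc1, Pdgfrb, Cspg4, Vil1, Cldn7, Ptprc and Coro1a. Gene positions come from GENCODE vM21 on GRCm38. BLAST+ 2.17.0 found no other gene sharing 200 bases at 95% identity with any of the 10. RefSeq promoters were matched for 4 of the 10 (Egfl7, Kdr, Flt1 and Cldn5). On simulated data for this comparison (12348 genes, 200 changed), 41.2% of 2-fold changes were recovered, as were 87.3% of 4-fold ones, with 4.46% of calls false. The fit of the real data called 1099 genes, more than the 200 changed here, so these rates need not hold for it. Figures were drawn with matplotlib 3.10.9. Alternatives covered scaling, pseudocount, filter, moderation, the replicate number as a block and each sample left out.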

Additional observations from a re-analysis of the deposited data

How the results depend on the processing

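Each of the 9 tested endothelial genes was refitted under 15 alternatives, fewer where a stricter filter removed it. Of these refits 120 kept direction and side of the threshold, 5 lost the call (Egfl7), 4 gained one (Cldn5, Cdh5 and Vwf) and 4 changed sign without a call: Pecam1 (0.13) and Kdr (0.036) without DSS 2, Plvap (-0.0044) without DSS 3 and Esam (-0.051) without DSS 1. With 1 sample left out, Pecam1 ranged from -0.45 to 0.13, Kdr from -0.31 to 0.036, Plvap from -0.0044 to 0.61 and Esam from -0.051 to 0.51. The number of endothelial genes called was 2 under upper-quartile and 2 under median-of-ratios scaling, 0 without the filter on low values, and from 0 to 3 when 1 sample was left out. Over all genes, calls numbered 1099 and ranged from 250 to 1556 with 1 sample left out, with 191 to 972 higher and 58 to 584 lower. Upper-quartile scaling gave 505 higher and 532 lower, and median-of-ratios scaling 517 higher and 503 lower. Genes called in the vascular and other-cell lists numbered 16, then 9 without the filter and 2 to 18 with 1 sample left out. The 16 include Selp and Cd209f, which reached the level for testing through 1 group alone. The cause of these changes was not tested, beyond fits without 1 sample having fewer samples.

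The labels do not say that replicate numbers pair samples. Same-numbered deviations correlated at 0.08, 0.13 and 0.0031. DSS 1 and DSS 2 correlated best with the control of their own number, and DSS 3 with control 1 (0.034). Correlations this small among so few samples cannot decide whether the numbers pair samples. The replicate block gave 895 calls over all genes, 640 higher and 255 lower, called 1 endothelial gene (Egfl7, adjusted p = 0.0389) and 16 list genes, losing Klf2 (0.0591) and Folr2 (0.0594) and gaining Pf4 (0.041) and Gp1bb (0.0392). Depth is unknown and limits the genes below 1 FPKM most.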
